A study of Mus musculus with 703 samples.

Results

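The 7 genes described here had levels set far apart between strains of mouse: Pttg1, Dnah1, Stk33, Tmem132d, Clvs1, Atp5g2 and AK157302. In 6 of them some strains were near 0, while Atp5g2 was low in some strains but not near 0. They are 7 of the 19088 genes in the count matrix from gastrocnemius, a fast muscle of the calf. They were chosen by a measured value, the share of the variance of their level across animals that lay between strains, which was over 80% for each. The strain levels below are therefore a description, and no test was made of them. Tests across all genes were made for sex, diet and metformin, which took no part in the choice, and for whether these differences depended on strain. Each strain's levels were also read against its parental lines, to see which lines account for them.

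The study crossed inbred Collaborative Cross lines, each a different mosaic of the same founder genomes, into 20 kinds of F1 mouse called CC-RIX strains. The 20 strains came from 19 lines, and each animal carries 1 copy of the genome of each of its 2 lines. Muscle RNA of 352 female and 351 male mice was sequenced, with 1 library per animal. From 6 weeks of age both sexes ate a diet with 10% fat (control) or with 44% fat (high fat and high sugar). Some of the animals also received metformin, a drug for type 2 diabetes, which was put into their drinking water (5 mg/mL) once they had reached 7 months. The untreated mice were 236 females and 233 males, of which 234 ate 10% fat and 235 ate 44% fat, with 10 to 26 mice per strain. The treated mice were 116 females and 118 males, of which 116 ate 10% fat and 118 ate 44% fat, with 7 to 13 mice per strain. Cohorts were collected at 6 and 12 months, and the labels used here give no animal's age. Treated mice can only belong to the older cohort, so metformin and age cannot be told apart. The mouse lines are reference lines without an engineered allele in the labels, and animals of a strain are separate mice labelled with the same F1 cross. Genotypes of single animals were not used.

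In an F1 animal, a gene with a working copy in only 1 line is read from that copy alone, so a difference carried at the gene itself is known to give about equal steps between animals with no, 1 or both expressed copies. Such local differences are commonly called cis effects, while differences carried elsewhere in the genome are called trans effects. Count tables add a further layer. Reads that match more than 1 place in the genome have to be divided among genes, and retrocopies, which are copies of a spliced messenger RNA put back into the genome, share nearly all of their sequence with their source gene.

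The members have unrelated roles. Pttg1 encodes securin, which holds the protease separase in check until chromosomes separate. Dnah1 encodes a heavy chain of the inner dynein arm that drives beating of cilia and sperm tails. Stk33 encodes a serine/threonine kinase of the calmodulin-dependent kinase group, best known from male germ cells. Tmem132d encodes a single-pass membrane protein of the TMEM132 family, known mostly from brain. Clvs1 encodes clavesin 1, a CRAL-TRIO domain protein that binds lipid on clathrin-coated vesicles of neurons. Atp5g2 encodes subunit c, the rotor ring of mitochondrial ATP synthase, and Atp5g1 and Atp5g3 encode the same mature protein. AK157302 is a single-exon gene whose coding sequence resembles Isca1, a mitochondrial iron-sulphur cluster assembly gene.

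Total estimated counts per library ranged from 27.4 to 96.1 M with a median of 47.9 M. Levels are CPM, the counts per M counts of the library after adjustment of the library sizes. A library with a count of 0 can hide up to 3 counts. These are 0.0627 CPM at the median depth and 0.11 CPM in the shallowest library. This is a limit of detection for 1 library and not for a strain. Clvs1 in (CC002/UncJ x CC043/GeniUncJ)F1, for example, had a median of 0.0469 CPM and a count of 0 in 5 of 24 animals. This limit covers counting error only. Sequencing identifiers in the labels fall into a lower range (544 libraries) and an upper range (159 libraries), which was used as a batch term. Libraries were checked against their labels. In 15 libraries, 11 of them untreated, the level of Xist was on the side of the other sex. In 4 untreated libraries the whole profile was closest to another strain: animals 6 and 25 of (CC024/GeniUncJ x CC002/UncJ)F1 resembled (CC002/UncJ x CC075/UncJ)F1, and animals 17 and 18 of the latter resembled the former (the numbers only name animals). Values are given with and without these 4 libraries wherever they mattered. All 6 muscle markers were present, summing to 80722 to 143470 CPM per library. Markers of motile cilia summed to 0.969 to 11.3 CPM, and their defining factor Foxj1 was not among the genes of the table. Markers of dividing cells summed to 0.041 to 25.8 CPM, adipocyte markers to 3.38 to 409.1 CPM, nerve and glia markers to 42.0 to 244.4 CPM and hepatocyte markers to 0.0555 to 6175 CPM. The part of such cells in the levels below was not tested, and in whole muscle fewer cells of a type and less RNA per cell cannot be told apart.

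Positions are those of GRCm38 with exons from GENCODE M21. Pttg1 lies on chromosome 11 (43420250 to 43426251, minus strand), Dnah1 on chromosome 14 (31260375 to 31323896, minus strand) and Stk33 on chromosome 7 (109279223 to 109439081, minus strand). Tmem132d lies on chromosome 5 (127781630 to 128433077, minus strand), Clvs1 on chromosome 4 (9269293 to 9451691, plus strand), Atp5g2 on chromosome 15 (102662864 to 102672352, minus strand) and AK157302 on chromosome 13 (21495223 to 21497146, plus strand). The 7 genes are on 7 different chromosomes. Counts cover whole exons, so the values below belong to the gene and not to a single exon.

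The share of each gene's exon sequence that is also found in another gene was counted in stretches of 31 bases, since reads from shared stretches have to be divided. It was 0.618% for Pttg1, 0.201% for Tmem132d and 3.19% for Dnah1, where the partner is an antisense gene, Gm35823. For Stk33 it was 11.3%, shared with the antisense gene 1700095J03Rik. Clvs1 shared 35.3%, most of it (29.9%) with Asph, a gene on the opposite strand whose end overlaps that of Clvs1 by 3623 bases. Atp5g2 shared 40.2%, mostly with Gm10175, a transcribed processed pseudogene on chromosome 7 (23946646 to 23947290, minus strand) that holds 37.5% of the Atp5g2 stretches. AK157302 shared 75.7%, with Isca1 on chromosome 13 (59755409 to 59769810, minus strand). The levels of Clvs1, Atp5g2 and AK157302 are uncertain to that extent. The partners Gm10175, Isca1 and Asph were named because of this shared sequence and after the values had been seen.

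The beginnings of the coding sequences of the closest pairs are printed because the levels of Atp5g2 and AK157302 turn on how similar they are. Over the whole coding sequence, AK157302 and Isca1 differed at 2 of 387 bases (99.5% identity). Capitals mark these differences, which are T31C and C36T, counted from 1 at the first coding base, with the base of AK157302 first and that of Isca1 last. Atp5g2 and Gm10175 had 0 differences in 438 bases (100% identity), so nothing is in capitals in that pair. The sequences are read 5′ to 3′ from GENCODE M21 transcripts of GRCm38. The stretch of AK157302 is chr13:21495306-21495425 on the plus strand and that of Gm10175 is chr7:23947113-23947232 on the minus strand, while those of Isca1 and Atp5g2 are spliced from several exons.
AK157302: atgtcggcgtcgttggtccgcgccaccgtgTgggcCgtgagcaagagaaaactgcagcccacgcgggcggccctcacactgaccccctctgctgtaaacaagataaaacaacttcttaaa
Isca1: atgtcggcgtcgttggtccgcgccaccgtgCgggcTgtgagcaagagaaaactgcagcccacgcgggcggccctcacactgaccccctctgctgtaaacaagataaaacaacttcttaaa
Atp5g2: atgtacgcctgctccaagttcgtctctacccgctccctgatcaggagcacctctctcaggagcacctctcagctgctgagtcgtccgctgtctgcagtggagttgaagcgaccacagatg
Gm10175: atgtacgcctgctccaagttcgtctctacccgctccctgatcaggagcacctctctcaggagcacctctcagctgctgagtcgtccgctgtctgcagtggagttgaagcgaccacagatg

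The shares of variance between strains, the measure by which the genes were chosen, were 97.4% for Pttg1, 96.7% for AK157302, 92.1% for Atp5g2, 85.3% for Dnah1, 85.1% for Tmem132d, 84.3% for Stk33 and 82.9% for Clvs1 (omega squared on log2 CPM, untreated mice). The median of all genes tested was 15.3%, and 236 of 16384 genes (1.44%) exceeded 80%. Just above the limit were Avil and Sdccag8, both at 80.1%, and just below it were Ap4s1 and Lrrcc1, both at 79.9%. Sex took at most 0.764% and diet at most 0.0497% of the variance of any of the 7 genes. In the treated mice alone the shares were 95.1% for Pttg1, 94.3% for AK157302, 83.0% for Atp5g2, 85.3% for Dnah1, 81.8% for Tmem132d, 85.9% for Stk33 and 84.2% for Clvs1. All 7 genes were thus above 80% there as well. Whether the choice of genes also used the treated mice is not known, so these shares are no separate check.

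**Figure D1:**
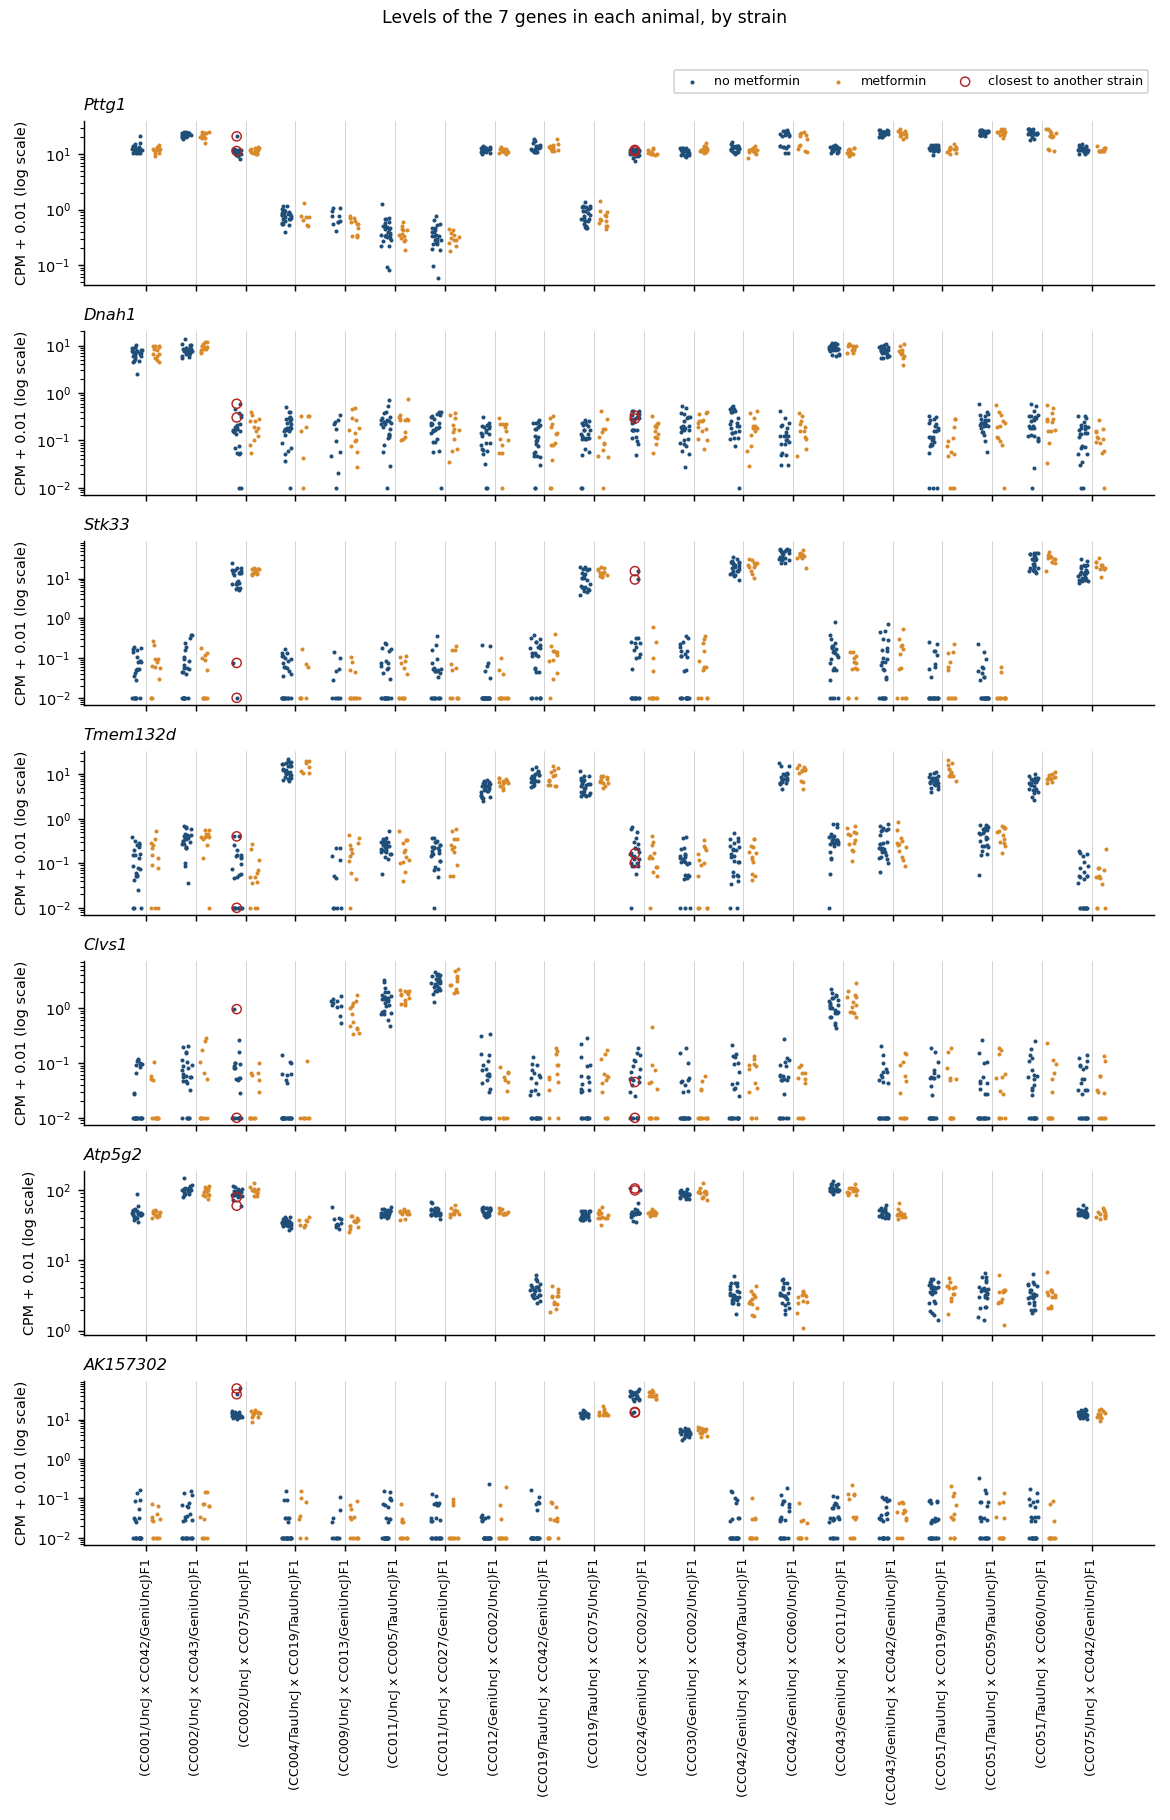
Level of each of the 7 genes in every animal, as CPM plus 0.01 on a log axis, for the 20 strains and with untreated and treated animals side by side; red circles mark the 4 untreated libraries closest to another strain. Each gene has a low and a higher band of strains, which meet for Clvs1, and the circled animals of Stk33 and AK157302 lie at the level of another strain.

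Pttg1 stood at 3 levels. In 5 strains its median was 0.322 to 0.791 CPM, in 10 strains 10.8 to 13.1 CPM and in 5 strains 21.8 to 24.3 CPM. The lowest strain was (CC011/UncJ x CC027/GeniUncJ)F1, with 0.0488 CPM in its lowest animal, 0.322 CPM at the median and 0.757 CPM in its highest (n = 24). The highest was (CC051/TauUncJ x CC059/TauUncJ)F1, with 20.98, 24.3 and 27.2 CPM (n = 24). No untreated animal lay between the bottom level and the rest. The highest animal of the 5 low strains had 1.37 CPM and the lowest of the other 15 strains had 7.64 CPM, a gap that held in the treated mice as well (1.40 against 8.32 CPM). Within the middle level, animals of neighbouring strains overlapped. The 10 strain means ran from 10.6 to 13.3 CPM with SDs between animals of 0.973 to 2.31 CPM, and whether these means differ was not tested.

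The 3 levels of Pttg1 were set beside parental lines picked by a fit of the same strain means, described below. The steps by line are therefore a description. Strains with none of the lines CC051/TauUncJ, CC043/GeniUncJ, CC042/GeniUncJ, CC002/UncJ, CC059/TauUncJ and CC060/UncJ had means of 0.339 to 0.818 CPM. Those with 1 of these lines had 10.6 to 13.3 CPM, and those with 2 had 19.8 to 24.2 CPM. The means over strains were 0.616, 12.2 and 22.9 CPM. The step from 1 to 2 of these lines was thus about as large as that from none to 1.

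Of all libraries, treated ones included, 9 were more than 1 log2 unit from the Pttg1 median of their strain and 11 from that of Atp5g2, while the other genes had 101 to 203 such libraries, most of them in the strains of the low group. In a pair of strains several animals lay at the Pttg1 level of another step. In (CC042/GeniUncJ x CC060/UncJ)F1, 13 of 33 animals had 10.3 to 14.6 CPM of Pttg1 and the other 20 had 18.8 to 26.7 CPM. Of the 13 low animals, 8 were in the lower identifier range and 5 were treated. Untreated mice of this strain averaged 16.6 ± 5.90 CPM (SD, n = 12) in the lower range and 23.7 ± 2.07 CPM (n = 10) in the upper range. In (CC051/TauUncJ x CC060/UncJ)F1, 3 of 36 animals had 11.6 to 12.3 CPM while 33 had 18.1 to 28.8 CPM, and all 3 were treated mice of the upper range. The upper range held all 12 treated mice of this strain. Both strains share the line CC060/UncJ.

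Single libraries at the middle level stood above 20 CPM of Pttg1 in 2 other strains, and both stood apart in many genes. Animal 31 of (CC001/UncJ x CC042/GeniUncJ)F1 had 21.004 CPM where its strain had a median of 12.2 CPM. In that library Atp5g2, Gm10175, Atp5g1, Atp5g3 and the muscle gene Ckm were also at 1.90, 1.87, 2.58, 1.95 and 1.76 times the strain median, while Dnah1 was at 2.49 CPM where the median was 6.97 CPM. Animal 17 of (CC002/UncJ x CC075/UncJ)F1, a library closest to another strain, had 20.8 CPM of Pttg1 where the median was 11.3 CPM, and its Atp5g1 and Atp5g3 were at 2.37 and 1.82 times the median. These Pttg1 values are therefore not read as another step.

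**Figure D2:**
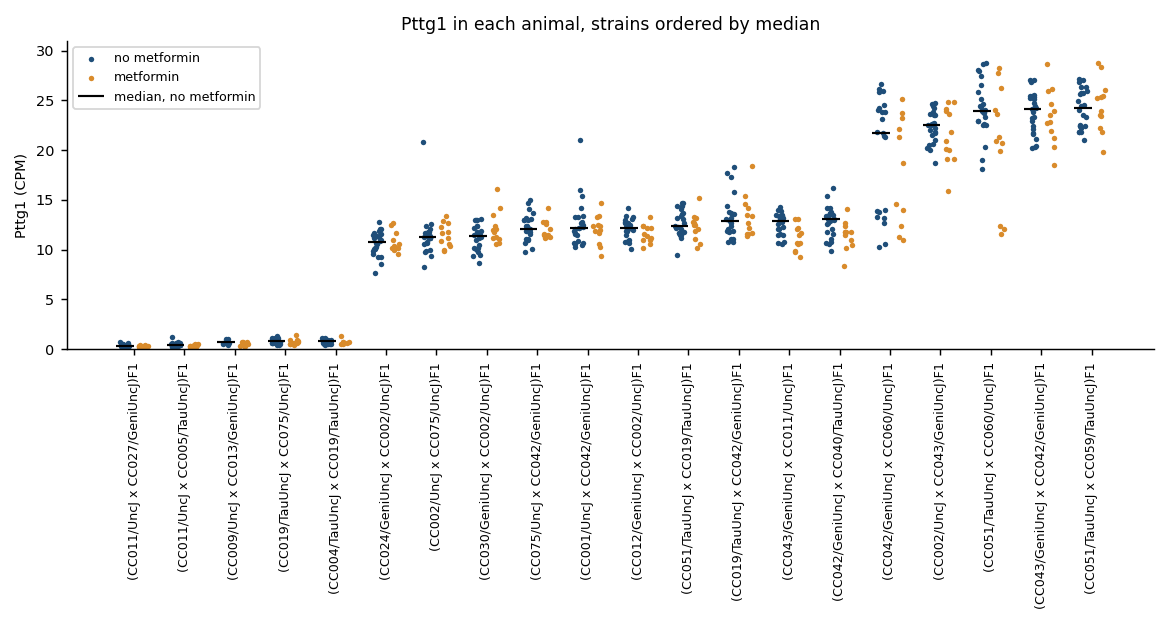
Pttg1 level (CPM, linear axis) in every animal, with strains ordered by their untreated median (black bars) and untreated and treated animals side by side. Strains form 3 steps near 0, near 12 and above 20 CPM, and animals of (CC042/GeniUncJ x CC060/UncJ)F1 fall on both of the upper steps.

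Dnah1 was near 0 in 16 strains, with medians of 0.0982 to 0.252 CPM, and was on in 4 strains at about the same level. The medians were 6.97 CPM in (CC001/UncJ x CC042/GeniUncJ)F1, 8.06 CPM in (CC002/UncJ x CC043/GeniUncJ)F1, 8.16 CPM in (CC043/GeniUncJ x CC042/GeniUncJ)F1 and 8.79 CPM in (CC043/GeniUncJ x CC011/UncJ)F1. Animals of these 4 strains overlapped, with means of 6.83 to 8.82 CPM and SDs between animals of 1.43 to 1.87 CPM. Whether the 4 means differ was not tested. The highest of 372 animals in the 16 low strains had 0.698 CPM and the lowest of 97 in the 4 high strains had 2.49 CPM. Every high strain had exactly 1 of the lines CC043/GeniUncJ and CC001/UncJ, and the 16 low strains had neither. These lines were picked by a fit of the same strain means, described below. No strain had both, so a second step could not be seen.

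Stk33 was off in most strains and on at graded levels in the others. In 14 strains its medians were 0 to 0.118 CPM, and 140 of 327 animals of these strains had a count of 0. In the other 6 strains the medians rose from 9.66 CPM in (CC019/TauUncJ x CC075/UncJ)F1, 10.5 CPM in (CC002/UncJ x CC075/UncJ)F1 and 13.5 CPM in (CC075/UncJ x CC042/GeniUncJ)F1 to 20.1 CPM in (CC042/GeniUncJ x CC040/TauUncJ)F1, 26.1 CPM in (CC051/TauUncJ x CC060/UncJ)F1 and 37.9 CPM in (CC042/GeniUncJ x CC060/UncJ)F1. Neighbours in this order overlapped, with SDs of 5.29 to 10.3 CPM around their means. By these medians, over both identifier ranges, the strains with CC075/UncJ were at the bottom, that with CC040/TauUncJ between, and those with CC060/UncJ at the top.

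The 4 libraries closest to another strain mattered for Stk33. Animals 6 and 25 of (CC024/GeniUncJ x CC002/UncJ)F1, where the median was 0.0668 CPM, had 9.48 and 15.4 CPM. Animals 17 and 18 of (CC002/UncJ x CC075/UncJ)F1 had 0.0656 and 0 CPM. With these 4 libraries the low and high strains overlapped (15.4 against 0 CPM). Without them the highest low animal had 0.778 CPM and the lowest high animal 3.87 CPM.

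Stk33 also differed between the identifier ranges within the strains where it was on. In (CC051/TauUncJ x CC060/UncJ)F1 the untreated means were 18.6 ± 3.31 CPM (SD, n = 12) in the lower range and 36.6 ± 5.94 CPM (n = 12) in the upper range. These groups did not overlap, at 13.95 to 23.2 against 28.9 to 43.6 CPM. In (CC019/TauUncJ x CC075/UncJ)F1 the means were 6.00 ± 1.65 CPM (n = 12) and 14.7 ± 3.78 CPM (n = 12), and in (CC042/GeniUncJ x CC060/UncJ)F1 they were 33.3 ± 7.62 CPM (n = 12) and 48.1 ± 6.85 CPM (n = 10). The upper range was thus higher by 1.963, 2.45 and 1.44 times. In (CC042/GeniUncJ x CC040/TauUncJ)F1 the upper range was also higher, at 32.8 CPM (n = 2) against 18.8 CPM (n = 22). In (CC075/UncJ x CC042/GeniUncJ)F1 its single animal, at 8.97 CPM, was below the 15.3 CPM of the 23 others. In the lower range alone (CC051/TauUncJ x CC060/UncJ)F1, at 18.6 CPM, was not above (CC042/GeniUncJ x CC040/TauUncJ)F1, at 18.8 CPM. The order of these strains by median therefore cannot be told apart from identifier range. The other strain with CC060/UncJ, (CC042/GeniUncJ x CC060/UncJ)F1, was higher in the lower range too, at 33.3 CPM. What the identifier range stands for is not given in the labels, and its part in these differences was not tested.

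Tmem132d was near 0 in 13 strains, with medians of 0.0364 to 0.411 CPM, and on in 7 strains, with medians of 5.09 to 12.4 CPM. The lowest of these 7 was (CC012/GeniUncJ x CC002/UncJ)F1, with 2.56, 5.09 and 7.62 CPM in its lowest, median and highest animal (n = 24). The highest was (CC004/TauUncJ x CC019/TauUncJ)F1, with 7.14, 12.4 and 22.6 CPM (n = 26). The highest of 301 animals in the low strains had 0.774 CPM, below the 2.56 CPM of the lowest of 168 in the high strains. The 6 strains with 1 of the lines CC060/UncJ, CC019/TauUncJ, CC004/TauUncJ and CC012/GeniUncJ had means of 4.95 to 9.17 CPM. The single strain with 2 of them, (CC004/TauUncJ x CC019/TauUncJ)F1, had a mean of 13.1 ± 4.33 CPM (SD, n = 26). All 13 strains with none of these lines were in the low group. These lines too were picked by the fit described below.

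Tmem132d showed the same direction between identifier ranges as Stk33, at smaller size. In the 6 of its high strains with untreated mice in both ranges, the upper range was higher in 6, by 1.09 to 1.57 times, though in 2 of these it held only 1 and 2 mice. The groups overlapped in each of the 4 strains with 10 or more mice per range, for example 2.62 to 8.96 against 4.60 to 10.3 CPM in (CC051/TauUncJ x CC060/UncJ)F1.

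Clvs1 had the lowest counts of the genes. In 16 strains its medians were 0 to 0.0469 CPM, and 175 of 385 animals (45.5%) had a count of 0. It was on in 4 strains, with medians of 1.05 CPM in (CC043/GeniUncJ x CC011/UncJ)F1, 1.19 CPM in (CC009/UncJ x CC013/GeniUncJ)F1, 1.40 CPM in (CC011/UncJ x CC005/TauUncJ)F1 and 2.95 CPM in (CC011/UncJ x CC027/GeniUncJ)F1. The first 3 overlapped, with means of 1.12 to 1.44 CPM and SDs of 0.344 to 0.671 CPM. The fourth ran from 1.31 to 4.59 CPM, and its median was above the highest animal of the first and second. The low and high strains overlapped by 1 animal, animal 17 of (CC002/UncJ x CC075/UncJ)F1 at 0.951 CPM, which is a library closest to another strain. Without the 4 libraries the ends were 0.321 and 0.428 CPM, and the highest low and the lowest high animal had 18 counts each. In treated mice 1 low animal (0.447 CPM) passed the lowest high one (0.334 CPM).

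Asph, the gene that overlaps the end of Clvs1, did not rise and fall with it. Its strain means lay between 131.5 and 171.6 CPM, a ratio of 1.30, where those of Clvs1 differed by 142.0 times, and the correlation of the strain means was 0.358 (n = 20 strains). Clvs1 and Asph shared libraries and 29.9% of the Clvs1 stretches.

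Atp5g2 stood at 3 levels like Pttg1, but nowhere near 0. Its medians were 3.16 to 3.80 CPM in 6 strains, 33.7 to 49.1 CPM in 10 strains and 88.7 to 102.9 CPM in 4 strains. The lowest strain was (CC042/GeniUncJ x CC060/UncJ)F1, with 1.71, 3.16 and 5.36 CPM in its lowest, median and highest animal (n = 22). The highest was (CC043/GeniUncJ x CC011/UncJ)F1, with 89.8, 102.9 and 135.0 CPM (n = 24). The highest animal of the 6 low strains had 6.62 CPM and the lowest of the other 14 strains had 27.5 CPM. Between the middle and upper levels some animals crossed. One was animal 31 of (CC001/UncJ x CC042/GeniUncJ)F1, described above, at 88.4 CPM. Animals 6 and 25 of (CC024/GeniUncJ x CC002/UncJ)F1, both closest to another strain, had 105.9 and 99.5 CPM where their strain's median was 47.6 CPM.

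The pseudogene Gm10175 was the mirror image of Atp5g2. Its strain means averaged 93.1 ± 3.24 CPM (SD over 6 strains) where Atp5g2 was lowest, 51.0 ± 6.28 CPM over the 10 middle strains and 1.71 ± 3.30 CPM over the 4 where Atp5g2 was highest. The last value rested on the libraries closest to another strain, and without them it was 0.0563 ± 0.0228 CPM. Across the 20 strains, Pearson's r between the means of Atp5g2 and Gm10175 was -0.992, a value over strains of the same libraries. The sum of both was nearly flat, at 88.4 to 106 CPM, a ratio of 1.199 between the highest and lowest strain against 31.7 for Atp5g2 alone. Strain accounted for 92.1% of the variance of Atp5g2 and for 7.63% of that of the sum (2.54% in treated mice, where Atp5g2 itself had 83.0%). Atp5g2 and Gm10175 are the pair with 0 differences over the coding sequence printed above. How reads that match both were divided was not tested, so a change between the genes and a change in how shared reads were assigned cannot be told apart.

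The other genes for subunit c did not take steps with Atp5g2. Atp5g1 averaged 186.2 ± 12.3, 179.8 ± 4.94 and 184.2 ± 6.65 CPM (SD over 6, 10 and 4 strains) at the low, middle and high levels of Atp5g2. Atp5g3 averaged 277.3 ± 14.2, 268.1 ± 8.77 and 279.8 ± 12.8 CPM. The differences between levels were within the spread between strains for both genes.

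**Figure D3:**
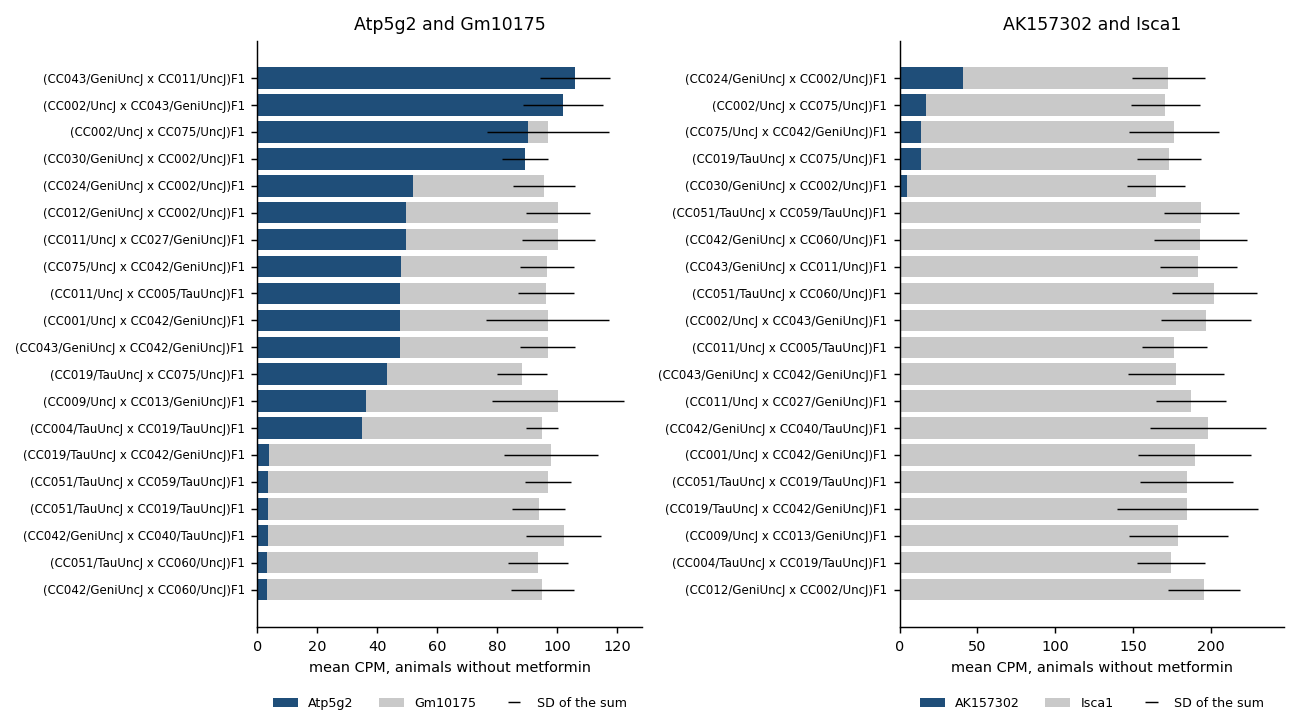
Mean level per strain in untreated animals (CPM) of Atp5g2 stacked with Gm10175 (left) and of AK157302 stacked with Isca1 (right), with strains ordered by the level of the blue gene and black lines for the SD of the sum between animals. The blue part changes between strains while the stacked total stays between 88.4 and 106 CPM on the left and between 164.7 and 202.1 CPM on the right.

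AK157302 was at or near a count of 0 in 15 strains and on in 5, at 3 heights. Medians of the 15 were 0 to 0.0224 CPM, below the limit of detection at the median depth, and 184 of 349 animals had a count of 0. It was at 4.59 CPM in (CC030/GeniUncJ x CC002/UncJ)F1, with 3.01 to 6.22 CPM over its animals (n = 24). In the 3 strains with CC075/UncJ it was at 13.6, 13.7 and 13.8 CPM, so these did not differ beyond their spread. In (CC024/GeniUncJ x CC002/UncJ)F1 it was at 42.9 CPM. The low and high strains did not overlap, at 0.314 against 3.01 CPM, and the same was seen in treated mice (0.206 against 3.59 CPM).

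The 4 libraries closest to another strain stood out most clearly in AK157302. Animals 17 and 18 of (CC002/UncJ x CC075/UncJ)F1 had 44.3 and 62.0 CPM, the level of (CC024/GeniUncJ x CC002/UncJ)F1. Animals 6 and 25 of the latter had 15.7 and 15.1 CPM, close to the level of the former. Without these 4 libraries the mean of (CC002/UncJ x CC075/UncJ)F1 fell from 16.7 to 13.4 CPM and that of (CC024/GeniUncJ x CC002/UncJ)F1 went from 40.9 to 43.2 CPM.

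Isca1 was lower where AK157302 was on. Its strain means lay between 131.4 CPM in (CC024/GeniUncJ x CC002/UncJ)F1, where AK157302 was highest, and 202.0 CPM in (CC051/TauUncJ x CC060/UncJ)F1. The 5 strains with AK157302 on had Isca1 means of 131.4, 153.9, 159.2, 160.0 and 162.3 CPM, all below the 174.3 CPM of the lowest other strain. The 2 genes did not trade one for one. In (CC030/GeniUncJ x CC002/UncJ)F1 AK157302 reached only 4.63 CPM on average while Isca1 was at 160.0 CPM. Pearson's r over the 20 strain means was -0.861. The sum of the 2 genes ran from 164.7 to 202.1 CPM and was low where AK157302 was on, at 164.7, 170.6, 172.3, 172.9 and 176.3 CPM in the 5 strains against 174.4 to 202.1 CPM in the others. Strain accounted for 96.7% of the variance of AK157302, 32.9% of that of Isca1 and 12.1% of that of the sum (94.3%, 28.1% and 6.56% in treated mice). The sum was thus less even between the on and off strains than that of Atp5g2 and Gm10175. The share of reads that match both genes was not tested.

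Parental lines were then given a value each, the level an animal with 2 copies of that line would have if the copies of a gene add up, so that a strain's level is the mean of the values of its 2 lines. With 20 strains and 19 lines, 18 values could be fitted, because CC009/UncJ and CC013/GeniUncJ occur only with each other. CC001/UncJ, CC004/TauUncJ, CC005/TauUncJ, CC012/GeniUncJ, CC024/GeniUncJ, CC027/GeniUncJ, CC030/GeniUncJ, CC040/TauUncJ and CC059/TauUncJ each occur in a single strain. Their values rest on that strain and on the value of its other line, and cannot be checked in another strain. The fit has nearly as many values as strains, so a close fit is no check of additivity. The lines named above for Pttg1, Dnah1 and Tmem132d are those at 50% or more of the highest value in this fit. Their steps come from the same strain means and are no separate check.

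For Dnah1 the fit gave 16.5 CPM to CC043/GeniUncJ and 13.7 CPM to CC001/UncJ, and the other 16 values were under 5% of the highest. For Stk33 it gave 65.3 CPM to CC060/UncJ, 35.4 CPM to CC040/TauUncJ, 22.7 CPM to CC075/UncJ and 4.56 CPM to CC042/GeniUncJ. For AK157302 it gave 80.3 CPM to CC024/GeniUncJ, 29.1 CPM to CC075/UncJ and 7.81 CPM to CC030/GeniUncJ. In AK157302 and Stk33 the lines that were on thus differed from each other, and CC075/UncJ reached 36.2% of CC024/GeniUncJ in AK157302 and 34.7% of CC060/UncJ in Stk33. The Stk33 values take both identifier ranges together, which the strains filled unequally.

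For Tmem132d the values were 14.6 CPM for CC060/UncJ, 14.1 CPM for CC019/TauUncJ, 12.2 CPM for CC004/TauUncJ and 9.53 CPM for CC012/GeniUncJ. For Clvs1 they were 3.73 CPM for CC027/GeniUncJ, 2.19 CPM for CC011/UncJ, 0.698 CPM for CC005/TauUncJ and 1.16 CPM for the mean of CC009/UncJ and CC013/GeniUncJ. Pttg1 had 6 lines at 18.7 to 27.3 CPM, and its next line, CC012/GeniUncJ, was at 3.15 CPM. Atp5g2 had 7 lines at 66.5 to 103.8 CPM, the mean of CC009/UncJ and CC013/GeniUncJ at 36.4 CPM and the rest at 0 to 6.76 CPM.

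No line was high for all of the genes. CC060/UncJ was high for Pttg1, Stk33 and Tmem132d, CC043/GeniUncJ for Pttg1, Dnah1 and Atp5g2, and CC075/UncJ for Atp5g2 with intermediate values for Stk33 and AK157302. CC027/GeniUncJ, which occurs in a single strain, was fitted at 0 for 6 of the genes and highest for Clvs1. The fit allowed no value below 0, so a fitted 0 is its lower bound and not a measured level.

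**Figure D4:**
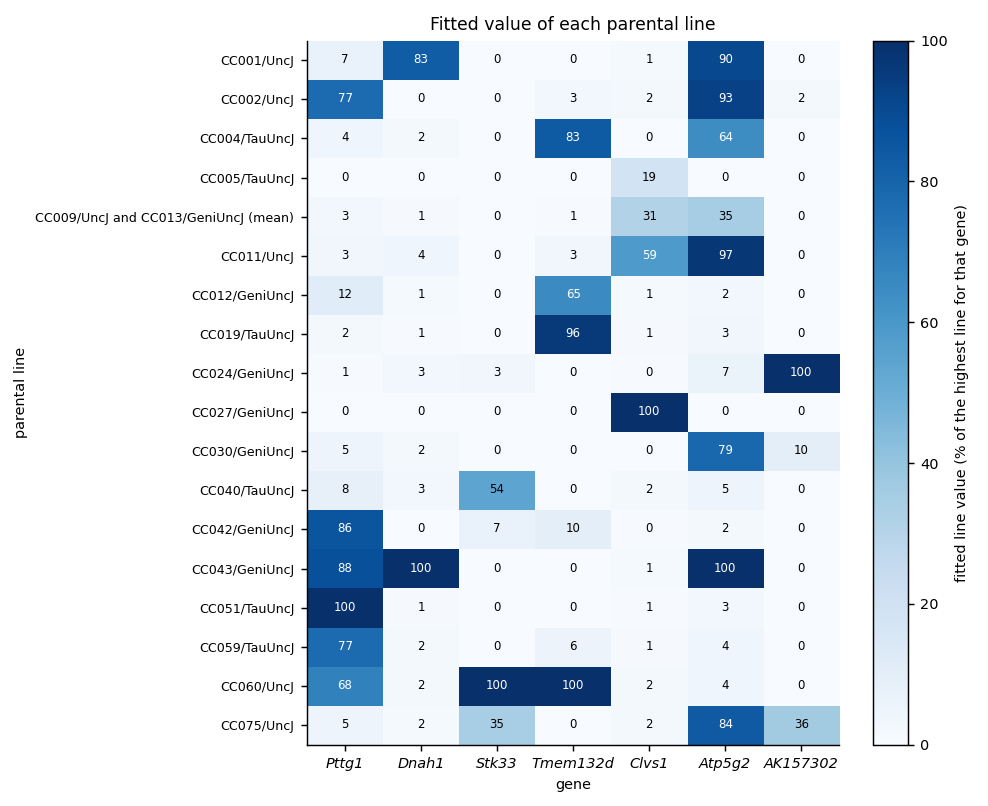
Fitted value of each parental line as a percentage of the highest line for that gene, from untreated animals; rows are lines and columns are the 7 genes, with darker blue for higher values. Dnah1 and AK157302 have 2 and 1 lines at 50% or more, Pttg1 and Atp5g2 have 6 and 7.

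In rings of 4 strains, the sums of opposite strains use the same 4 lines, so line values that add up would give equal sums. In each ring below, both sums also hold the same numbers of high lines by the fitted values. Equal sums therefore cannot show whether a second copy added as much as the first. In the ring of CC002/UncJ, CC075/UncJ, CC042/GeniUncJ and CC043/GeniUncJ, the sums for Pttg1 were 35.2 ± 0.618 and 34.6 ± 0.424 CPM (SE), and those for Dnah1 were 8.24 ± 0.288 and 8.34 ± 0.382 CPM. For Tmem132d, in the ring of CC051/TauUncJ, CC019/TauUncJ, CC042/GeniUncJ and CC060/UncJ, they were 16.4 ± 0.811 and 14.9 ± 0.630 CPM. The differences were 0.553 ± 0.749 CPM for Pttg1, -0.106 ± 0.479 CPM for Dnah1 and 1.46 ± 1.03 CPM for Tmem132d. Others were larger relative to their SE. For Stk33 the sums in the ring with CC051/TauUncJ were 40.1 ± 2.20 and 27.7 ± 2.10 CPM, a difference of 12.3 ± 3.05 CPM. For Pttg1 in that ring the difference was -5.02 ± 1.45 CPM, in the strain pair that includes the animals at the middle level. For Atp5g2 in the ring with CC002/UncJ the sums were 137.8 ± 2.61 and 149.7 ± 2.91 CPM, a difference of -12.0 ± 3.91 CPM, or -10.1 ± 3.75 CPM without the 4 libraries. Strains differed in how many of their mice were in each identifier range, and the part of the ranges in these differences was not tested.

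Genes whose strain means followed a member most closely were listed 3 per member, by Pearson's r of log2 means over the 20 strains; strains share lines, so these points are not independent. The closest of all was Gm6055 with Dnah1 (r = 0.981), 16.8 Mb away on the same chromosome, with strain means of 0.162 to 15.2 CPM. Also near Dnah1 was Dph3 (r = -0.893), 0.757 Mb away, while Gm44440 (r = 0.893) lies on another chromosome. For Clvs1 the closest were Rnf20 (r = -0.953) and Rpp25l (r = 0.915), 40.2 and 32.3 Mb away on its chromosome, and Il15 (r = 0.903). For AK157302 they were Hipk4 (r = -0.943), Zfp934 (r = 0.936), 41.0 Mb away, and B230354K17Rik (r = 0.907).

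The matches of the other members were all on other chromosomes. Those of Pttg1 were Khk (r = -0.856), Mgme1 (r = -0.843) and Clec18a (r = -0.826), and those of Atp5g2 were Tars2 (r = -0.867), Glt28d2 (r = 0.852) and Rpap2 (r = 0.847). Stk33 was followed by Gm4841 (r = -0.893), Aim1 (r = -0.824) and Ercc8 (r = 0.802), and Tmem132d by BC049715 (r = 0.79997), Xpo4 (r = 0.792) and Tgs1 (r = 0.783). Within 1 Mb of a member, an absolute r above 0.8 was found for 4 of 38 genes around Dnah1 and for 0 of the 6, 21, 10, 5, 45 and 14 genes around Pttg1, Stk33, Tmem132d, Clvs1, Atp5g2 and AK157302.

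Genes that belong to the same complexes or families were then looked at, apart from the copies described above. None of those tested in the 6 lists had more than 80% of its variance between strains. Among the 18 genes tested for ATP synthase subunits, the median share of variance between strains was 9.67%, and 0 exceeded 80%. The highest was mt-Atp6, a subunit encoded by mitochondrial DNA, at 77.6%, followed by mt-Atp8 at 30.9% and Atp5f1 at 26.7%. Among 12 genes of separase, cohesin and their control, which act with securin, the median was 12.2% and the highest was Pds5b at 40.1%, with Pds5a at 26.8% and Smc3 at 25.4%. Espl1, which encodes separase itself, was at 10.0%, with strain means of 0.159 to 0.460 CPM; it was named after its values were seen.

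The 9 axonemal dynein genes tested had a median of 6.89%. Dnal1 was at 44.3%, Dnah8 at 30.6% and Dnah7b at 10.5%, and the strain means of Dnah8 ran from 0.256 to 2.48 CPM. The 14 calmodulin-dependent kinase genes had a median of 14.3% with Camk2d at 38.6%, Camk2b at 31.2% and Pnck at 28.9%. The 5 CRAL-TRIO genes had a median of 13.5% with Sec14l1 at 21.7%, Ttpal at 18.9% and Sec14l5 at 13.5%. Of the TMEM132 family, Tmem132a was at 38.8%, Tmem132b at 33.2% with strain means of 1.56 to 12.7 CPM, and Tmem132c at 9.28%. Tmem132e was too low for the fit of untreated mice, and Clvs2 was not among the genes of the table.

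Sex was tested next, in untreated mice, with edgeR's quasi-likelihood test and Benjamini-Hochberg adjustment over all 16384 genes. It called 3 of the 7 genes at an adjusted p under 0.05, where it called 65.2% of all genes, so the share among the members was not above that of the muscle as a whole. All 3 were higher in males. Here and below, counts of strains in which a group had the higher mean leave out the 4 libraries closest to another strain. The tests keep these libraries, and those with Xist on the side of the other sex, unless stated. AK157302 differed by 0.31 ± 0.083 on the log2 scale (SE, adjusted p = 0.00052), and males had the higher mean in 5 of the 5 strains where it was on, by 1.10 to 1.24 times. Isca1 differed in the same direction, by 0.33 ± 0.013. Dnah1 differed by 0.22 ± 0.077 (adjusted p = 0.0076). For Dnah1 this came with 13 of the 16 low strains, at few counts, while in the 4 high strains males were higher in 2, and the call was lost with limma voom (0.04, adjusted p = 0.45). Atp5g2 differed by 0.058 ± 0.027 (adjusted p = 0.048), a fold of 1.04, and this call was lost with other size factors (adjusted p = 0.072) and without the 4 libraries closest to another strain (0.065).

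For Stk33 the sex difference depended on strain. Over all strains it was -0.06 ± 0.12 (adjusted p = 0.66), but sex and strain interacted (adjusted p = 8.4e-15). With the 4 libraries closest to another strain left out, females had the higher mean in all 14 strains where Stk33 was low, at levels of a few counts. In the 6 strains where it was on, males were higher in 4 and the ratio of males to females was 0.811 to 1.25. Without the 4 libraries the difference over all strains was -0.30 (adjusted p = 0.0015). The interaction remained called without them (adjusted p = 4.5e-16) and was not called with limma voom (adjusted p = 0.98). The interaction test called 2 of the 7 genes, and 29.4% of all genes. The other was AK157302 (adjusted p = 0.027, and 0.99 with limma voom).

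Diet called 1 of the 7 genes, Stk33, where it called 18.4% of all genes. Stk33 was higher on 44% fat by 0.43 ± 0.12 on the log2 scale (adjusted p = 0.0029). With the 4 libraries closest to another strain left out, its mean was higher on 44% fat in 6 of the 6 strains where it was on, by 1.10 to 1.21 times. In the 14 low strains it was higher in 9. The largest of the on strains, (CC042/GeniUncJ x CC060/UncJ)F1, averaged 36.4 ± 9.68 CPM (SD, n = 11) with the control diet. With the high-fat diet it averaged 43.7 ± 10.1 CPM (n = 11), so the groups overlapped within a strain. Leaving out the 4 libraries closest to another strain lowered the difference to 0.23 (adjusted p = 0.041), and the call was lost with DESeq2 (adjusted p = 0.077) and limma voom (0.10). Diet interacted with strain in 1 of the 7 genes, Stk33 (adjusted p = 1.5e-06, against 3.27% of all genes called), and this rested on the same 4 libraries, since without them the adjusted p was 1.00.

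Treated mice differed from untreated mice in 2 of the 7 genes, where 16.2% of 17740 genes were called, 7.01% as higher and 9.21% as lower in treated mice. Tmem132d was higher with metformin by 0.20 ± 0.067 on the log2 scale (adjusted p = 0.021). Its mean was higher in treated mice in 7 of the 7 strains where it was on, by 1.03 to 1.71 times. These means are not adjusted for identifier range. In (CC019/TauUncJ x CC075/UncJ)F1, (CC051/TauUncJ x CC060/UncJ)F1, (CC042/GeniUncJ x CC060/UncJ)F1 and (CC019/TauUncJ x CC042/GeniUncJ)F1 all treated mice were in the upper range. Their untreated mice were in both ranges, with higher Tmem132d in the upper range. The part of the range in these ratios was not tested. In (CC051/TauUncJ x CC019/TauUncJ)F1, with all mice in the lower range, Tmem132d was 7.19 ± 1.85 CPM (SD, n = 24) in untreated and 12.3 ± 4.19 CPM (n = 12) in treated mice. In the lower identifier range alone the difference was 0.22 with an adjusted p of 0.058, so the call was lost there.

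Pttg1 was lower with metformin by 0.082 ± 0.023 on the log2 scale (adjusted p = 0.0048), a fold of 0.945. Its mean was lower in treated mice in 10 of the 15 strains where it was on and in 5 of the 5 low strains. The strain with the largest drop among those with Pttg1 on, (CC051/TauUncJ x CC060/UncJ)F1, went from 24.2 to 20.7 CPM and holds the 3 treated animals at the middle level. Its treated mice were all in the upper identifier range, while its untreated mice were 12 in each range. In the lower identifier range alone the tested difference of Pttg1 was -0.04 (adjusted p = 0.19). Metformin interacted with strain in 1 of the 7 genes, Stk33 (adjusted p = 3.4e-06, against 8.89% of all genes called), and again not without the 4 libraries (adjusted p = 0.22). Age cannot be told apart from metformin in any of these values.

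**Figure D5:**
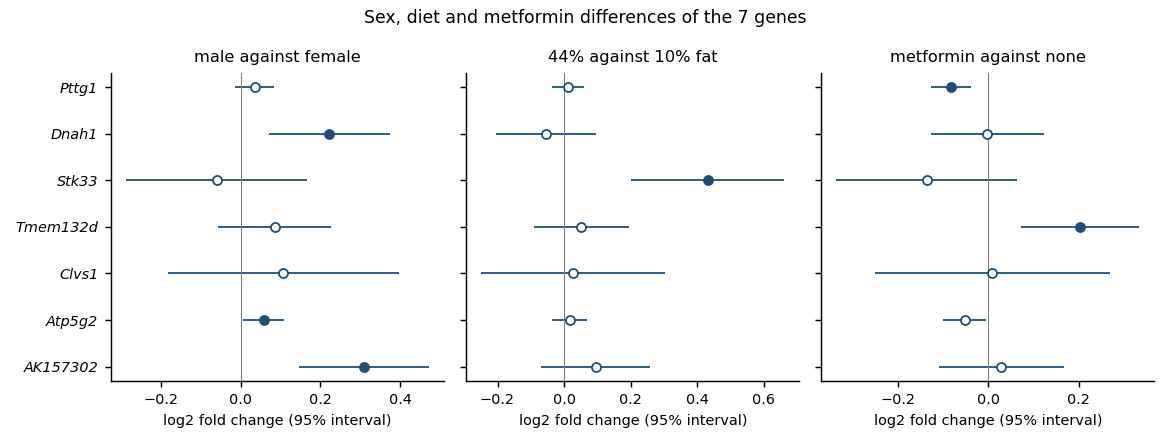
Log2 fold change of each of the 7 genes for males against females, 44% against 10% fat and metformin against none, from edgeR, with 95% intervals; filled points have an adjusted p under 0.05. Filled points are AK157302, Dnah1 and Atp5g2 for sex, Stk33 for diet, and Pttg1 and Tmem132d for metformin.

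Of the related gene lists, the ATP synthase subunits moved most often with these factors. For sex, 17 of 18 were called and higher in males (29.5% of all genes), with a median log2 fold change of 0.098 against -0.018 over all genes. For diet, 12 of 18 were called and higher on 44% fat (9.55% of all genes), with a median of 0.049 against -0.0024. For metformin, 11 of 18 were called and lower in treated mice (9.21% of all genes), with a median of -0.04 against -0.0023. Atp5g2, which was kept out of the list, was called for sex alone. Cell markers moved with the same factors. Skeletal muscle markers were higher in males in 5 of 6 (median 0.101), lower on 44% fat in 2 and higher in treated mice in 2. Adipocyte markers were higher in females in 4 of 5 (median -0.447), with Lep higher in males. They were higher on 44% fat in 4 of 5 (median 0.235), with Retn lower, and lower in treated mice in 2 of 5 (median -0.151). Nerve and glia markers were higher in females in 2 of 5 and lower in treated mice in 2 of 5. Dividing cell markers were higher in females in 2 of 2 and lower in treated mice in 2 of 4. The part of these cells in the counts of the lists was not tested. Of the 9 axonemal dynein genes, 3 were higher in males, 5 higher in females (35.7% of all genes) and 0 called for diet. The calmodulin-dependent kinase group had 5 higher in males and 7 in females of 14, the separase and cohesin genes 4 and 3 of 12, the CRAL-TRIO genes 1 and 2 of 5 and the TMEM132 family 1 and 2 of 3. For diet these 4 lists had 4, 1, 1 and 1 genes called, where 18.4% of all genes were. For metformin they had 4 of 14, 2 of 13, 2 of 6 and 1 of 4, and the dynein genes 1 of 11, where 16.2% of all genes were. The lists were chosen with earlier results known, and their counts are a description.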

How the data were processed

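RNA from gastrocnemius of CC-RIX mice was sequenced by the authors, who aligned reads to a transcriptome of the 8 founder genomes and divided reads with several matches by expectation maximization (EMASE and GBRS). The submitters' processing notes name GRCm38 and DESeq2. The estimated counts per gene were deposited by the authors as whole numbers, after genes with under 1 read in at least 50% of samples had been dropped. A table of variance-stabilized values, close to a log2 scale, was also deposited by the authors and was used as an alternative only.

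The members and the gene lists were chosen with earlier results of these data known. Groups came from the labels, which mark each library as a separate animal. Total counts were 27.4 to 96.1 M per library, so the rarest genes here rest on a few counts. Levels are CPM with TMM-adjusted library sizes. The share of variance is omega squared of strain on log2 CPM (prior count of 2) beside sex, diet and the range of the sequencing identifier. Sex and diet were tested in untreated mice and metformin in all mice, each with strain, sex, diet and identifier range in the model, by edgeR 4.0.16 quasi-likelihood F-tests in R 4.3.3 (genes kept by filterByExpr, Benjamini-Hochberg over all genes tested, threshold 0.05), and interactions with strain by joint F-tests. The study also used age, which the labels do not give. Line values came from non-negative least squares on strain means. Sequences and shared stretches came from GENCODE M21. Alternatives were size factors, filters, limma 3.58.1 voom, DESeq2 1.42.0, either identifier range alone and other scales. Others left out the 4 libraries closest to another strain or, for the tests, those with Xist on the side of the other sex. Adding the counts of a gene's copy was chosen after seeing the data. The testing steps were tested on simulated data with 200 changed genes. Named genes were the 7 members, the 3 genes closest to each in strain means (largest absolute r), the 2 genes on either side of the 80% limit, the paralogs of subunit c, Clvs1 and Tmem132d, and up to 3 genes per list with the largest share.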

Additional observations from a re-analysis of the deposited data

Results flagged for a closer look

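In 4 cases the size of a difference depended on strain by a test of the interaction itself (edgeR, adjusted over all genes). For Stk33 these were sex by strain (adjusted p = 8.39e-15), diet by strain (adjusted p = 1.53e-06) and metformin by strain (adjusted p = 3.44e-06), and for AK157302 sex by strain (adjusted p = 0.0273). With the 4 libraries closest to another strain left out, Stk33 kept the interaction with sex (adjusted p = 4.47e-16) but not those with diet (1.00) and metformin (0.217). None of the 4 was called with limma voom.

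Only 2 groups had 4 to 10 animals, and each of the 7 genes was tested in both by Dixon's criterion, which chance meets in about 1 in 20 groups. The 14 tests share the animals of 2 groups, and 5 of them had 1 animal apart from the rest. Among the 7 treated mice of (CC004/TauUncJ x CC019/TauUncJ)F1 the highest Pttg1 level was 1.29 CPM, with the others at 0.493 to 0.744 CPM. In the same group the highest Stk33 level was 0.160 CPM against 0 to 0.0630 CPM, and the highest Clvs1 level was 0.0993 CPM against 0 in all others, where the criterion is met by construction. These were 3 different animals. Among the 10 untreated mice of (CC009/UncJ x CC013/GeniUncJ)F1 the highest Atp5g2 level was 57.0 CPM against 27.8 to 40.6 CPM, and the highest AK157302 level was 0.0997 CPM against 0 to 0.0414 CPM. The values of Stk33, Clvs1 and AK157302 rest on a few counts and lie near the limit of detection, so nothing is read from them.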

How the results depend on the processing

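The shares of variance stayed above 80% for all 7 genes with variance-stabilized values, in treated mice, in the lower identifier range and without the 4 libraries closest to another strain. Without a logarithm they were 74.9% for Stk33 and 78.0% for Tmem132d. With a prior count of 0.5 they were 78.3% for Dnah1, 79.0% for Stk33 and 70.9% for Clvs1. With the counts of the copy added, a setting chosen after seeing the data, they were 7.63% for Atp5g2 and 12.1% for AK157302. In the upper identifier range alone, with 69 untreated mice, 0 of the 7 genes were called in each of the 6 tests. DESeq2 called 0 for diet, the lower range alone called 0 for metformin, limma voom called 0 in each interaction, and 0 were called for diet by strain and metformin by strain without the 4 libraries. Among single genes, 308 values kept direction and side of the threshold, 26 lost and 4 gained a call, and 13 changed sign, none of them a difference that was called in that setting. The sign changes for sex and diet were AK157302 in the upper range (-0.0913 and -0.189), Dnah1 for diet with voom (0.0744) and Clvs1 for diet with voom (-0.0174) and without the 4 libraries (-0.0231). For metformin they were Dnah1 with other size factors (0.00093), a mean of at least 1 CPM (0.0016), voom (0.0892), without the 4 libraries (0.0107) and in the upper range (0.154), Stk33 with voom (0.10) and without the 4 libraries (0.0041), and Clvs1 in the lower range (-0.0943). The cause of these changes was not tested. No paired analysis was possible because each library came from a different animal.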
